A study of Mus musculus with 9 samples.

Results

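H3K27me3 sites that were listed in Phf19-depleted mouse embryonic stem cells, but that overlapped neither a Suz12 nor a Phf19 site, numbered 205 of the 1180 sites of that list, or 17.4% (exact 95% interval 15.3 to 19.7). These sites were selected on their presence in the shPhf19 list and their absence from the other 2 lists, so neither is a finding here. A site was left out when it shared at least 1 base with a site of the Suz12 list or of the Phf19 list. Of the 975 sites left out, 655 lay on both factors, 318 on Suz12 alone and 2 on Phf19 alone. The 4 lists of the series hold 22147 sites in all.

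All cells were of E14Tg2A, a line of mouse embryonic stem cells, cultured feeder-free on gelatin in medium with fetal bovine serum and leukemia inhibitory factor. H3K27me3 was mapped by chromatin immunoprecipitation and sequencing in cells with a random control hairpin (shRd) and in cells with a hairpin against Phf19 (shPhf19), with 1 library each. Suz12 (1 library) and Phf19 (2 replicates, with sites kept when present in both) were mapped in wild-type cells. "Without Suz12 or Phf19" therefore describes wild-type cells, since neither factor was mapped after depletion in the lists used here. The H3K27me3 antibody carries a different catalogue number in the labels of the shRd and shPhf19 libraries. Depth is unknown, because the lists give positions and no counts, and no difference between shRd and shPhf19 has a replicate check.

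Trimethylation of lysine 27 of histone H3 is laid down by Polycomb repressive complex 2 (PRC2), of which Suz12 is a core subunit, and it marks silenced genes. In embryonic stem cells the sharpest PRC2 sites lie on CpG-rich promoters of developmental regulators, from where the mark spreads into the flanking chromatin. Phf19 is a Polycomb-like protein that accompanies PRC2 and reads methylated lysine 36 of histone H3. A listed H3K27me3 site without a listed Suz12 site can lie inside or beside a PRC2 domain, or far from any.

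The sites without Suz12 or Phf19 were unevenly spread over the chromosomes. Chromosome 14 held 57 of the 205, the X chromosome 42 and the Y chromosome 15, together 114 or 55.6%. On the X, 42 of the 43 shPhf19 sites (97.7%, 87.7 to 99.9) lacked both factors, on the Y 15 of 16 (93.8%, 69.8 to 99.8), and on chromosome 14 57 of 87 (65.5%, 54.6 to 75.4). On the other 18 chromosomes 91 of 1034 sites did, 8.80% (7.14 to 10.7), with 1 to 11 such sites per chromosome. Their share there ran from 1.85% on chromosome 9 to 24.2% on chromosome 16. These 3 chromosomes were singled out after their counts were seen. The X had 244 listed Suz12 sites and 36 Phf19 sites, the Y had 5 and 1, and chromosome 14 had 314 and 140.

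**Figure D1:**
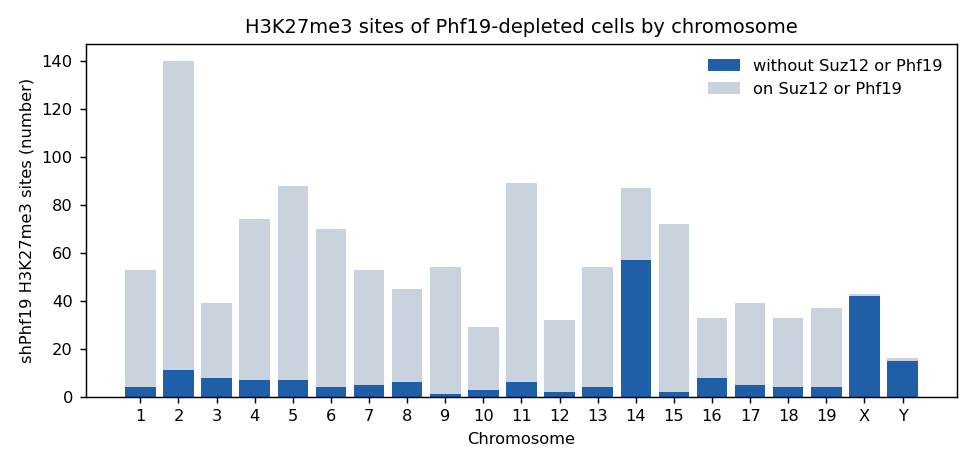
Number of shPhf19 H3K27me3 sites per chromosome, split into sites without Suz12 or Phf19 (dark) and sites on either factor (light). Dark bars reach 57 on chromosome 14, 42 on X and 15 on Y, and 1 to 11 elsewhere.

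Most of the sites on these 3 chromosomes lay in 1 stretch of each. A stretch was taken, after the positions were seen, as a run of at least 10 such sites in which neighbours were at most 1 Mb apart, and 3 runs met this. On chromosome 14, 54 sites lay between 3031934 and 9119834 (6.09 Mb, 8.87 sites per Mb), and 3 lay on the rest of the chromosome. On the X, 31 sites lay between 120145707 and 122848666 (2.70 Mb, 11.5 per Mb) and 11 outside. On the Y, all 15 lay between 1259236 and 2689678 (1.43 Mb, 10.5 per Mb). The 3 stretches thus held 100 of the 205 sites, and the other 105 are called scattered here.

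The stretches differed in what else was listed in them. That of chromosome 14 also held 57 Suz12 sites and 16 further shPhf19 sites, all 16 on Suz12. The X stretch held 5 Suz12 sites and no other shPhf19 site, and the Y stretch held 3 Suz12 sites and 1 other shPhf19 site. No Phf19 site was listed in any of the 3. Elsewhere, 140 lay on chromosome 14, 36 on the X and 1 on the Y. The sites that define the stretches were chosen for lacking Phf19, so this absence is not independent of the choice. Control H3K27me3 was listed in each, with 116 shRd sites on chromosome 14, 38 on the X and 8 on the Y. Of these, 48, 38 and 8 lacked both factors.

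**Figure D2:**
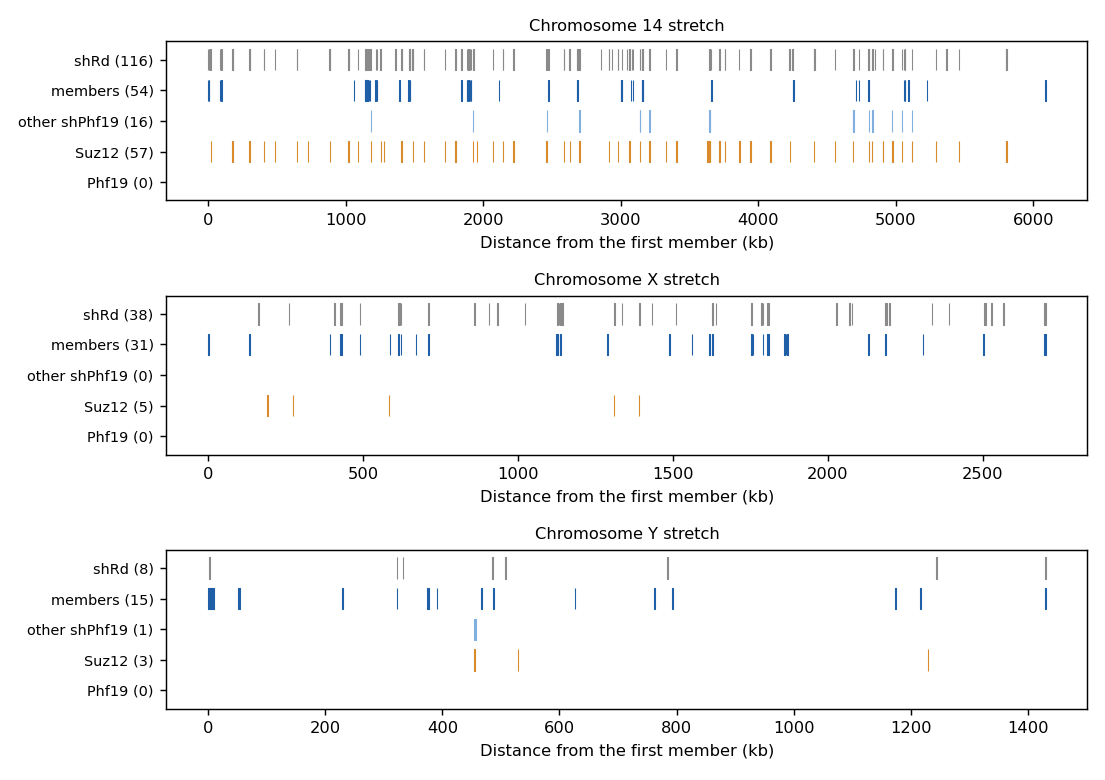
Positions of listed sites in the 3 stretches, in kb from the first shPhf19 site without Suz12 or Phf19 (here "members"), 1 row per list with its number of sites. Members and shRd sites share the stretches, Suz12 sites are frequent only on chromosome 14 (57), and the Phf19 row is empty in all 3.

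Within the stretches the sites were tightly grouped only on chromosome 14. The median gap between neighbouring sites was 7.05 kb there, 51.0 kb on the X and 63.0 kb on the Y. By a rule of at least 3 sites with gaps of at most 100 kb, 91 of the 205 sites (44.4%, 37.5 to 51.5) fell into 17 clusters. The same rule placed 48.7% of all shPhf19 sites in runs, and 45.4% of the sites on Suz12 or Phf19 (42.3 to 48.6), so clustering by this measure was near the background of the list. Of the 105 scattered sites, 14 (13.3%, 7.49 to 21.4) were in such clusters, in 4 of the 17. The stretches were drawn as long runs of sites, so a lower share outside them follows in part from that rule.

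The clusters of 5 or more sites numbered 7, all in the stretches. The fullest, at chromosome 14, 4092218 to 4261976, held 12 sites over 170 kb with a median gap of 1.56 kb, and sites covered 20.2% of its length. Its widest site was also the widest of all 205, at 4178444 to 4190999 (12.6 kb). Other clusters on chromosome 14 were at 3031934 to 3131653 (5 sites, widest 9.66 kb at 3121995 to 3131653), 4872620 to 4942645 (8 sites, widest 2.22 kb at 4872620 to 4874842) and 6031265 to 6193961 (8 sites, widest 4.70 kb at 6033864 to 6038566). On the X, 8 sites lay at 120537753 to 120858326 (widest 6.89 kb, at 120570004 to 120576889) and 7 at 121897140 to 122017397 (widest 6.73 kb, at 121948375 to 121955108). The Y cluster at 1488405 to 1747081 held 6 sites, of which the widest was 3.52 kb, at 1632863 to 1636381. The sites were closest together on chromosome 14 and farther apart on the X and Y.

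Spacing is also given by place. The stretches were drawn by spacing, so closer neighbours inside them follow in part from that rule. By the same rule no stretch site can lack a neighbour within 1 Mb. The median distance from a site to the nearest other site of the set was 52.2 kb, with quartiles of 3.14 and 3392 kb. In the chromosome 14 stretch the median was 1.64 kb, and 43 of 54 sites had a neighbour within 10 kb. On the X and Y stretches the medians were 24.7 and 29.3 kb, and 13 of 31 and 2 of 15 sites had a neighbour within 10 kb. Scattered sites had a median of 3091 kb over the 104 with another such site on their chromosome, and 63 of these 104 had none within 1 Mb. The remaining scattered site was the only one on chromosome 9. Sites on Suz12 or Phf19 had a median of 4.48 kb to the nearest of their kind, but they are 975, and a denser set has closer neighbours.

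Widths were also unlike between the stretches and the scattered sites. All 205 sites ran from 388 bp to 12.6 kb, with a median of 1431 bp (interval 1333 to 1676) against 1461 bp (1425 to 1505) for the sites on Suz12 or Phf19. The medians overlapped within these intervals, but the spread did not match: the 10th and 90th percentiles were 849 and 3989 bp without the factors and 1068 and 2507 bp with them. A wide site meets a factor site more easily, so width is not independent of how the set was chosen. In the X stretch the median was 2594 bp (1715 to 3631), in that of chromosome 14 1648 bp (1403 to 1938), and in that of the Y 1132 bp (812 to 2523). Scattered sites had a median of 1297 bp (1130 to 1410).

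**Figure D3:**
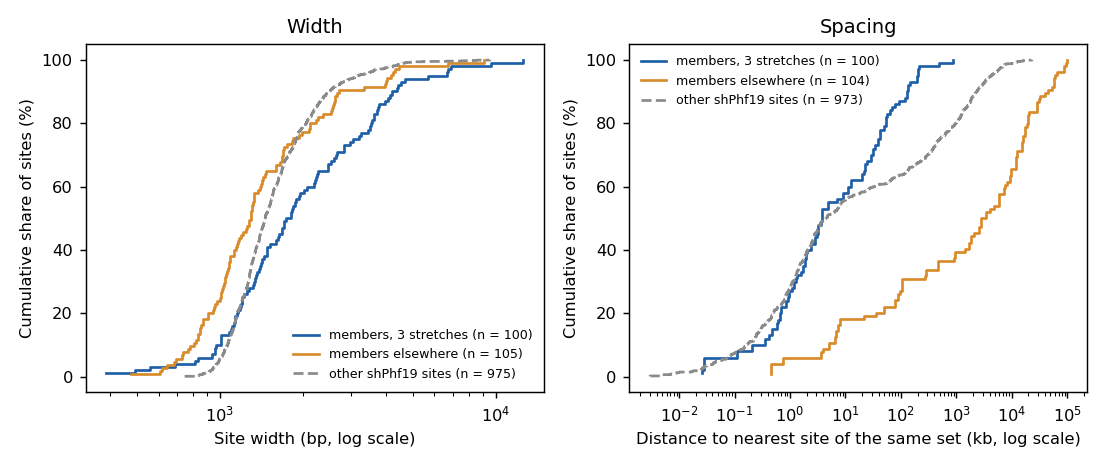
Cumulative share of sites by width (left, bp) and by distance to the nearest site of the same set (right, kb), both on log axes, for sites without Suz12 or Phf19 ("members") in the stretches and elsewhere and for the other shPhf19 sites. Scattered sites, left over by the spacing rule for stretches, lie far to the right in spacing, with a median of 3091 kb. Stretch sites reach the largest widths, up to 12.6 kb.

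The 10 widest sites were mostly in the stretches. Besides those already given, they included a site of 9.07 kb on the X at 166409468 to 166418538 and a site of 6.72 kb on chromosome 17 at 39979470 to 39986185. The others were a site of 5.70 kb on the Y at 1262960 to 1268657 and 2 on chromosome 14, of 6.68 kb at 5713448 to 5720130 and of 4.55 kb at 7280135 to 7284684. Of the 10, 7 lay on a control site, and those on chromosome 17, on the Y and at chromosome 14, 6033864 to 6038566, did not. The site on chromosome 17 stood alone: the nearest control H3K27me3 site was 2465 kb away and the nearest Suz12 or Phf19 site 1031 kb away. The sites on the Y and on chromosome 14 had a control site 1.24 and 1.13 kb away.

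Whether these sites carried H3K27me3 in control cells was asked of the shRd list, which the choice of sites did not use directly. Of the 8280 shRd sites, 5766 overlapped a Suz12 site. The shares on control sites are therefore not independent of choosing sites off Suz12. Of the 205, 112 overlapped an shRd site, 54.6% (47.6 to 61.6), against 86.2% of the whole shPhf19 list. Among sites on Suz12 or Phf19 it was 905 of 975, 92.8% (91.0 to 94.4), a difference of 38.2 percentage points, with an interval from 31.3 to 45.2. Sites on Phf19 (92.7%) and on Suz12 without Phf19 (93.1%) were alike in this share within their intervals. Intervals cover counting error only and treat neighbouring sites as independent, and no p-value is given with 1 library per condition.

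By place, 34 of 54 sites of the chromosome 14 stretch (63.0%, 48.7 to 75.7), 13 of 31 on the X (41.9%, 24.5 to 60.9) and 3 of 15 on the Y (20.0%, 4.33 to 48.1) lay on a control site. Among scattered sites 62 of 105 did (59.0%, 49.0 to 68.5). The difference between stretches and scattered sites was -9.05 points, and its interval of -22.2 to 4.51 included 0. The lower share on control sites was thus found in the scattered sites as well, at 33.8 points below the sites with a factor (interval 24.7 to 43.4).

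**Figure D4:**
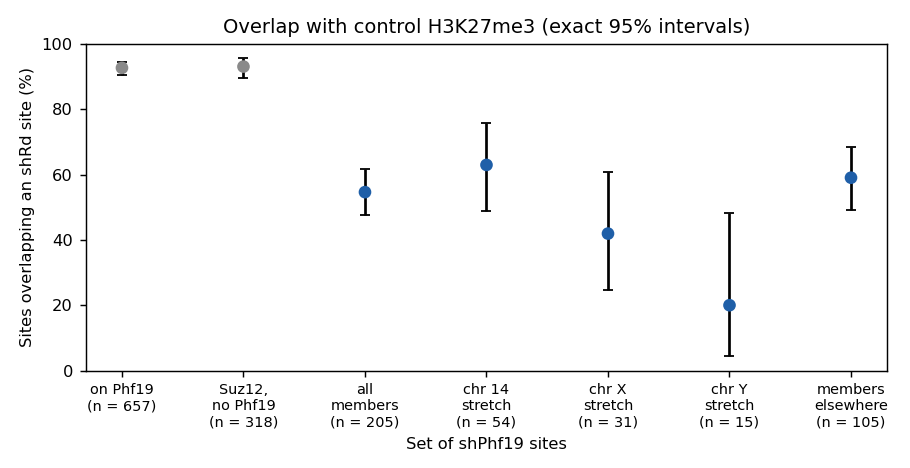
Share of shPhf19 sites overlapping an shRd site by at least 1 base (points, %), with exact 95% intervals and the number of sites under each set. Sites on Phf19 and on Suz12 without Phf19 sit at 92.7% and 93.1%, and the sets without either factor between 20.0% and 63.0%.

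The scattered sites fell into 3 kinds by what lay beneath them in control cells. For 23, the shRd site beneath itself held Suz12 or Phf19. These 23 sites, on 14 chromosomes, sat 0.225 kb in the median from the nearest factor site and 2.49 kb at most, and 21 were within 1 kb. They lay on 20 broad control sites, with a median of 11.7 kb and up to 29.9 kb, and sites of this kind covered 11.8% of that length. Of these 20 control sites, 13 also lay under another shPhf19 site that was on Suz12 or Phf19, and the length covered by those sites is not in this share.

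The 5 sites over the widest control sites were all of this kind. A site of 1125 bp on chromosome 18 lay on a control site of 29.9 kb, and a site of 2230 bp on chromosome 8, at 59814411 to 59816641, lay on one of 24.1 kb. On chromosome 5, a site of 1299 bp at 29795891 to 29797190 lay on a control site of 21.9 kb, and on chromosome 2, a site of 1397 bp at 73106237 to 73107634 lay on one of 20.4 kb. On chromosome 11, a site of 1335 bp at 96042886 to 96044221 lay on a control site of 19.1 kb. The last belonged to a cluster of 3 sites within 11.2 kb that held 2 Suz12 sites and no other shPhf19 site. All 3 of its sites lay on control sites.

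Sites of this kind also stand at the edge of the rule. The nearest to a factor site without touching it were at chromosome 3, 51146208 to 51147664 (13 bp away), chromosome 15, 85502904 to 85503770 (16 bp), and chromosome 2, 73106237 to 73107634 (60 bp). The sites just left out, at chromosome 14, 80174276 to 80175446, chromosome 5, 67612265 to 67613547, and chromosome 4, 86520945 to 86522176, shared 8, 21 and 24 bases with a factor site. Membership near this edge therefore turns on a few bases.

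The second kind, 39 scattered sites, lay on control sites that held neither factor. Their median distance to a Suz12 or Phf19 site was 114 kb, from 1.13 to 926 kb. The control sites beneath were narrow, with a median of 1484 bp. The third kind, 43 scattered sites, lay on no control site, with a median of 212 kb to the nearest, and 1 was within 1 kb of one. These had a median width of 1144 bp (979 to 1647), and the nearest factor site was 111 kb away in the median.

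In the stretches, the 50 control sites under the 50 overlapping sites held no Suz12 and no Phf19. Of the 50 stretch sites off the control list, 9 lay within 1 kb of a control site and 48 within 100 kb, so they were closer to control H3K27me3 than scattered sites off the list (1 and 18 of 43). Stretch sites lie near each other by rule, and 50 of them lay on control sites. This closeness therefore follows in part from how the stretches were drawn. Off-list sites of the 3 stretches together were narrower than those on it, with medians of 1376 bp (1200 to 1715) and 2252 bp (1814 to 2975). The medians off and on the list were 1284 and 1892 bp on chromosome 14 and 1796 and 3775 bp on the X. On the Y the order was reversed, 1177 bp off (12 sites) and 962 bp on (3 sites). A wide site meets a control site more easily, so width is not independent of being on the list. The 5 widest of all sites off the control list were the 3 named above and 2 on the X, at 121632047 to 121636439 (4.39 kb, in the stretch, 18.3 kb from a control site) and 143701880 to 143706206 (4.33 kb, 7.78 kb from one).

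Where a site without Suz12 or Phf19 lay on a control site that also lacked both, the widths in the 2 lists were close in the median. This was measured on pairs in which an shPhf19 site met 1 shRd site and that shRd site met no other shPhf19 site of any kind. In 75 such pairs the shPhf19 width was 96.8% of the shRd width in the median (interquartile range 79.7 to 110), and in 29 the depleted site was the wider one. In 497 pairs of the sites on Suz12 or Phf19 it was 30.8% (21.0 to 42.3), and 2 were wider. Both edges lay within 500 bp of the control edges in 47 of the 75 pairs (62.7%, 50.7 to 73.6) and in 20 of the 497 (4.02%, 2.48 to 6.15). In the other 28 of the 75 at least 1 edge was farther off.

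Control sites under the factors were wider, 4965 bp against 2025 bp in the median, so the pairs were compared within classes of control width. The classes did not match control width fully. Under 2 kb its medians were 1719 bp with the factors and 1182.5 bp without. At 2 to 4 kb they were 3143 and 2577 bp, and at 4 kb or more 6128.5 and 6014.5 bp. For control sites of 2 to 4 kb the depleted width was 89.8% of control without the factors (70.1 to 101, 25 pairs) and 44.0% with them (37.2 to 52.8, 144 pairs). There both edges were within 500 bp in 15 of 25 pairs (60.0%, 38.7 to 78.9) and in 6 of 144 (4.17%, 1.54 to 8.85). At 4 kb or more the widths were 74.7% (40.3 to 98.8, 14 pairs) and 24.8% (16.9 to 31.9, 334 pairs), and both edges were close in 4 of 14 pairs (28.6%, 8.39 to 58.1) and in 1 of 334 (0.299%, 0.00758 to 1.66). Under 2 kb they were 102% (88.8 to 122, 36 pairs) and 71.4% (62.5 to 82.4, 19 pairs), and the shares with both edges close, 77.8% and 68.4%, had overlapping intervals. In 6 pairs the control site held a factor although the shPhf19 site did not, and there the width was 27.1% of control (14.6 to 41.7), with both edges close in 0 of 6.

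Within the 75 pairs, stretch and scattered sites had like totals, with both edges close in 23 of 37 and 24 of 38, but they differed in control width. Under 2 kb lay 12 of the 37 stretch pairs and 24 of the 38 scattered pairs. At 2 to 4 kb, both edges were close in 12 of 17 stretch pairs (70.6%, 44.0 to 89.7) and 3 of 8 scattered pairs (37.5%, 8.52 to 75.5). At 4 kb or more, the depleted width was 87.5% of control in 8 stretch pairs (69.0 to 101) and 37.8% in 6 scattered pairs (23.9 to 83.1). With so few pairs these intervals and interquartile ranges overlapped.

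**Figure D5:**
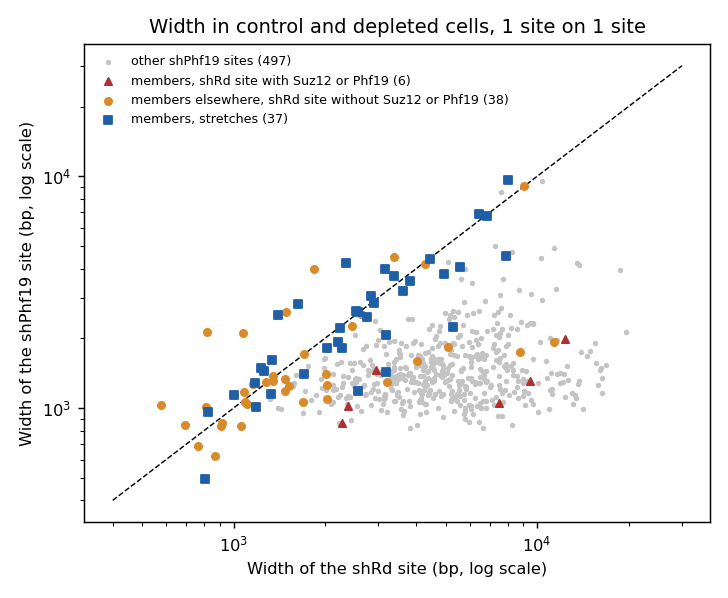
Width of the shPhf19 site against the width of the shRd site it overlaps (bp, log axes), for pairs in which neither site overlaps any other site of the other list. Equal widths fall on the dashed line. Sites without Suz12 or Phf19 on control sites without them (squares and circles, 75 pairs) lie around the line with a median of 96.8%. Sites on a factor (grey, 497 pairs) lie mostly below it with a median of 30.8%.

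Seen from control cells, 2475 shRd sites held neither factor, and 90 of them (3.64%, 2.93 to 4.45) overlapped an shPhf19 site, against 8.96% of all 8280 shRd sites. The overlapping shPhf19 site was one of the 205 in all 90 cases. On chromosome 14 it was 34 of 118 (28.8%, 20.9 to 37.9), on the X 17 of 60 (28.3%, 17.5 to 41.4), and on the Y 3 of 9 (33.3%, 7.49 to 70.1). On the other 18 chromosomes it was 36 of 2288 (1.57%, 1.10 to 2.17). Of the 90 still listed, 54 lay on chromosomes 14, X and Y. These 3 chromosomes were singled out for their counts of the 205 sites, and only those sites overlapped the 90. The contrast with the other 18 chromosomes therefore follows in part from that choice.

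Within chromosome 14 all 34 were in the stretch, 34 of 48 (70.8%, 55.9 to 83.0), and 0 of the 70 on the rest of the chromosome were still listed, which allows a share of up to 5.13% (exact upper limit). Control sites of the same stretch that held Suz12 overlapped an shPhf19 site in 13 of 68 cases (19.1%, 10.6 to 30.5). The median widths were 2068 bp with Suz12 and 1915 bp without, and the 2 kinds were not matched by width. On the rest of the chromosome, 12 of 174 with Suz12 were still listed (6.90%, 3.61 to 11.7). On the X, 13 of 38 control sites of the stretch (34.2%, 19.6 to 51.4), 4 of 22 without the factors outside it (18.2%, 5.19 to 40.3) and 1 of 64 with Suz12 (1.56%, 0.0396 to 8.40) were still listed. The stretches were drawn around shPhf19 sites chosen for lacking Suz12 and Phf19. A high share of control sites without the factors inside them is therefore a description and not a test.

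In length, the 205 sites spanned 417 kb, of which 53.1% lay on control sites, against 89.6% of the 1655 kb of sites on Suz12 or Phf19. In the stretches, shPhf19 sites covered 82.7% of the 155 kb of control sites beneath them. Among scattered sites they covered 66.3% of the length of control sites without the factors. No mm9 sequence, repeat or mappability track was used, so the part that repeated sequence may have in these lists was not tested.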

How the data were processed

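The authors deposited 4 lists of sites, each giving chromosome, start and end, with no score, count or signal. The submitters' processing notes name Bowtie 0.12.7, MACS 1.4.1 and build mm9 but give no role for any. Peak thresholds, control libraries, filters and the coordinate base (0 or 1) were not given in the sources used here. None of the 205 chosen sites changes its set or its place on the control list with that choice. The smallest gap of a chosen site to a factor site was 13 bp and to a control site 35 bp. Over all lists 5 pairs touched end to start, some of them shRd sites with Suz12 or Phf19 sites. The count of 2475 shRd sites without the factors could therefore change slightly with that choice. Coordinates are those of the lists. Width is end minus start. Overlap means at least 1 shared base. Shares carry exact Clopper-Pearson 95% intervals, differences Newcombe intervals, and medians of width exact binomial intervals.

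The set, the stretches and the comparison of edges were chosen with earlier results of these data known. Sites were named by rule: the 10 widest, the 5 widest off the control list, the clusters of 5 or more, the 3 nearest to each side of the overlap limit, and the 5 over the widest control sites. No gene names or sequences are given, because no mm9 annotation or genome was used here. H3K36me3, H3K36me2 and IgG samples were not analysed here. Overlaps were equal to those of bedtools 2.31.1 in 12 of 12 list pairs, and the functions were tested on simulated data. Scripts ran on Python 3.11.15 with pandas 2.3.3, numpy 2.4.6, matplotlib 3.10.9 and scipy 1.17.1.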

Additional observations from a re-analysis of the deposited data

How the results depend on the processing

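Of 55 alternatives, 18 were added after seeing the data, 32 lay inside the interval of the value in the text and 23 lay outside it. Only the difference in share on control sites could change sign, and it did not. The other results are shares, widths or distances, which cannot be negative. On autosomes the sites without Suz12 or Phf19 were 13.2% of the list, 62.2% of them lay on control sites, the difference from sites with a factor was -30.7 points, and 2.91% of control sites without the factors were still listed. Without chromosome 14 that last share was 2.38% and 31.1% of sites were in clusters. Without chromosomes 14, X and Y the sites were 8.80% of the list, the difference was -31.1 points, the median width 1299 bp, the clustered share 12.1% and the still-listed share 1.57%. Without the 3 stretches these were 9.88% of the list, 1297 bp, 13.3% and 1.68%, and the median spacing was 3392 kb. With the narrower part of each H3K27me3 list (under its median width) left out, the difference was -28.8 points and the still-listed share 7.41%. Counting H3K27me3 sites within 1 kb gave 4.53% still listed. Where only an overlap of 50% of the shorter site removed a site, 25% of the list lacked both factors. Clusters held 26.3% of sites with 5 or more members required, 62.9% with gaps up to 1 Mb and 22.9% with gaps up to 10 kb. For the values outside the interval the cause was not tested, beyond the fewer sites or other gap that each setting defines. No paired analysis was possible, because each H3K27me3 condition had 1 library and the lists carry no values per replicate. Sites under the authors' threshold are not listed, so absence from a list at unknown depth is not absence of the mark.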

Other observations

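In the chromosome 14 stretch some gaps between neighbouring sites without Suz12 or Phf19 were of like length. Of its 53 gaps, 25 were 5 kb or shorter. Among the 6 gaps of 50 to 100 kb, 4 lay between 63.9 and 65.8 kb (63.9, 65.4, 65.5 and 65.8 kb), and the other 2 were 79.1 and 79.4 kb. The gaps of 65.5 and 65.8 kb flanked the same pair of sites, at 6107190 to 6108578 and 6117517 to 6119006. The 5 gaps of this size in the X stretch were 53.7, 54.8, 57.4, 70.2 and 94.3 kb, and the 3 in the Y stretch were 50.6, 75.4 and 92.2 kb. These gaps were picked out after their values were seen. Sites on Suz12 or Phf19 were ignored in measuring them. The gaps of 65.8 kb on chromosome 14 and 75.4 kb on the Y held such shPhf19 sites, so they are not gaps of the whole list.

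Smaller groups of scattered sites lay at chromosome 3, 25417744 to 25449194, where 4 sites followed each other with gaps of 5.11 to 7.80 kb and 1 lay on a control site, and at chromosome 16, 3112995 to 3242813, where 3 of 4 did. A group of 3 sites lay on the X at 53204427 to 53250971, outside the stretch, with 2 on control sites. The cluster on chromosome 3 held 1 further shPhf19 site and 1 Suz12 site, and those on chromosome 16 and the X held no Suz12 site.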
